A study of Sus scrofa with 8 samples.

Results

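The nuclear regulators of cardiac fuel use described here were chosen by 10 gene symbols, namely the PPAR genes PPARA, PPARD and PPARG, the PGC-1 coactivator genes PPARGC1A and PPARGC1B, the ERR genes ESRRA, ESRRB and ESRRG, and NRF1 and TFAM. Of these, 9 name a row among the 18975 genes of the expression table. PPARGC1A was not found by that symbol, and a row with the symbol PPARGC1, which the table of gene names gives to PPARGC1A, is described beside the 9 as a related row. A second row, PPARALPHA, carries an identifier that the same table gives to PPARA, so that 2 rows of the table stand for PPARA. The row named TFAM carries an identifier that the table of gene names does not list, and that table gives TFAM to another identifier, so it is open whether this row measures the TFAM transcript. All 9 genes and both related rows passed the filter of at least 1 FPKM in at least 2 libraries, which 11913 genes passed. FPKM is by name the number of fragments on a gene relative to its transcript length and to the mapped fragments of the library, and so a level per length. The library scale of the deposited values did not follow the reads on genes. ESRRA had 7517 reads at 96.4 FPKM in TH1 and 5973 reads at 74.0 FPKM in TH2. These libraries had 26723000 and 15687000 reads on genes.

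RNA-seq libraries were made from hearts of male pigs aged 6 months in 4 groups. TH were Tibetan pigs, a breed native to the plateau, kept in the highlands (Linzhi, Tibet), and TL were Tibetan pigs kept in the lowlands (Beijing). YH and YL were Yorkshire pigs, a lowland commercial breed, kept at the same 2 sites. Each group had 2 libraries, and each library was made from pooled RNA of 4 pigs, so the spread behind every p-value is the spread between pools and not between animals. Breed was compared within the highland site (TH vs YH) and within the lowland site (TL vs YL), site was compared within Tibetan pigs (TH vs TL) and within Yorkshire pigs (YH vs YL), and the interaction was the TH minus TL difference less the YH minus YL difference. The comparisons share libraries and are not independent of each other. In whole heart, fewer cells of a type and less RNA per cell cannot be told apart.

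PPARs are nuclear receptors that bind fatty acids and their derivatives, pair with retinoid X receptors and raise transcription of genes for fatty acid uptake and oxidation. PGC-1 proteins do not bind DNA themselves but are coactivators that PPARs and ERRs recruit. ERRs are orphan receptors that drive genes of the respiratory chain, and NRF1 and TFAM link this nuclear programme to transcription of the mitochondrial genome; in the adult heart, which lives mainly on fatty acids, all of these are expressed.

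Between 15687000 and 26723000 reads per library fell on genes, with a median of 19648000. All 14 heart muscle markers of the table were at 1 FPKM or more in every library. One lowland Yorkshire library, YL2, stood apart: all 25 kidney markers of the table (of 28 listed) were highest in it and at 1 FPKM or more, and they summed to 9515 FPKM there against 1.81 to 18.5 FPKM in the other 7 libraries, where UMOD was listed at 0 in 6. The 14 heart muscle markers summed to 18317 FPKM in YL2, against 29632 to 49208 FPKM in the other 7 libraries. Their median log2 fold change in TL vs YL was 0.58, and -0.10 without YL2. The highland Tibetan library TH1 had the largest share of its reads on the mitochondrial genome, 47.8%, against 26.6% to 45.3% elsewhere, and YL1 was close to it at 45.3%. TH1 and YL2 were often at an end of the range: TH1 held the lowest value of 26.7% of all genes tested and of 5 of the 9 regulators and the highest of 25% and of 2, and YL2 held the lowest of 22.5% and of 2 and the highest of 24.7% and of 3. Values without YL2 or TH1 are therefore given where a result rests on them.

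By mean FPKM over the 8 libraries, ESRRA was the most abundant regulator at 72.4 FPKM, above 93% of the genes tested. The row named TFAM followed at 18.9 FPKM on no more than 32 reads, PPARGC1 at 8.50, PPARD at 6.06, ESRRG at 4.66, PPARGC1B at 4.0, PPARALPHA at 3.23, NRF1 at 2.94, PPARA at 2.31, PPARG at 2.14 and ESRRB at 1.54 FPKM. The TFAM values are high for their reads: in TH1 the row was at 11.3 FPKM on 7 reads, where PPARD was at 5.35 FPKM on 390. Its place in this order depends on the length scaling of a short row and was not settled. The lowest ESRRA value of any library, 42.4 FPKM, was above the highest value of every other regulator, 28.4 FPKM of TFAM. Below ESRRA the ranges over libraries of each pair of neighbours in this order overlapped.

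**Figure D1:**
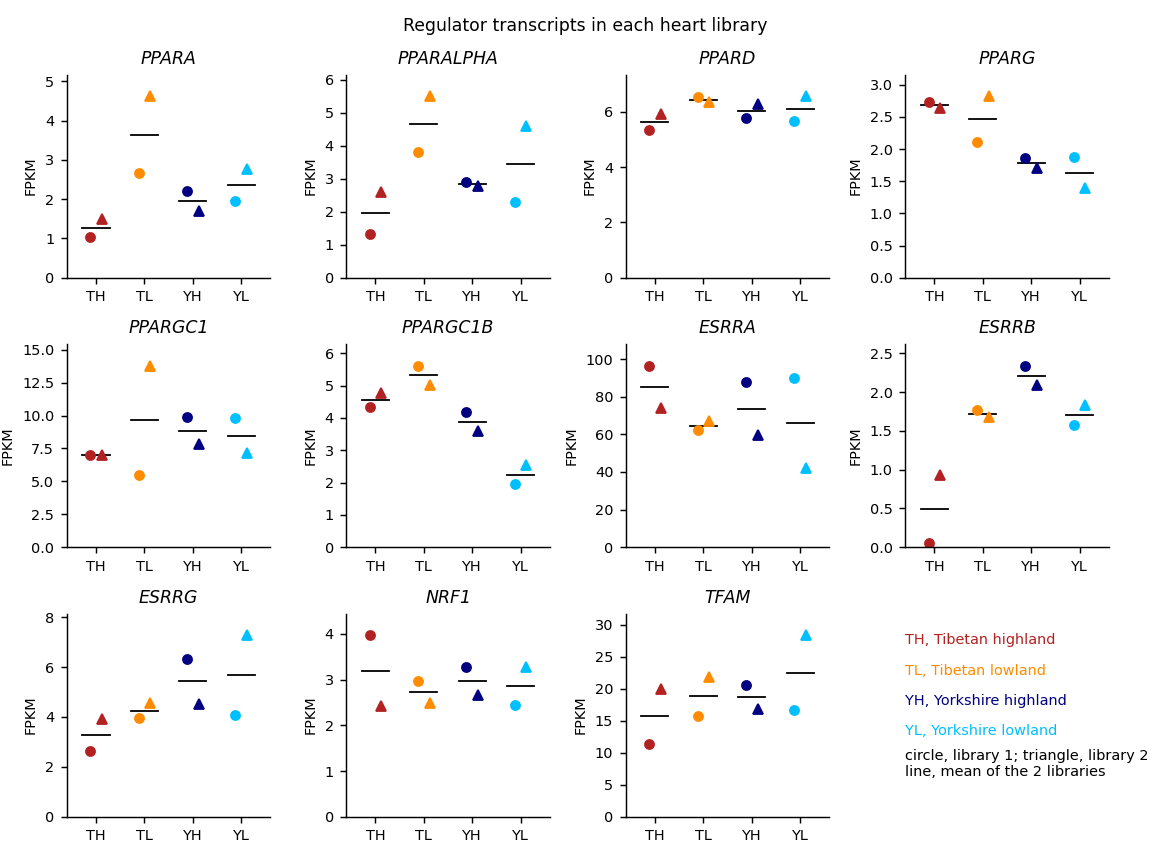
FPKM (vertical axes, starting at 0) of the 9 regulators and of the rows PPARGC1 and PPARALPHA in each library, by group (horizontal axes); circles are library 1, triangles library 2, and lines the mean of the 2. PPARGC1B is lowest in both YL libraries, at 1.94 and 2.53 FPKM, ESRRB is lowest in both TH libraries, at 0.0603 and 0.935 FPKM, and PPARA and PPARALPHA have their highest value in TL2 and their lowest in TH1.

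No regulator passed the test in any of the 4 comparisons or in the interaction, at a Benjamini-Hochberg adjusted p under 0.05 over all genes tested in limma. In TH vs YH, 0 of 9 were called, beside 0.26% of all genes tested, and 1 of 9 (ESRRB, lower) had an unadjusted p under 0.05, beside 16.2% of all genes. In TL vs YL, 0 of 9 were called, beside 0.00839% of all genes, and 1 of 9 (PPARGC1B, higher) had an unadjusted p under 0.05, beside 8.94%. In TH vs TL, 0 of 9 were called, beside 0.101%, and 2 of 9 (PPARA and ESRRB, both lower) had an unadjusted p under 0.05, beside 11.3%. In YH vs YL, 0 of 9 were called, beside 0% of all genes, and 1 of 9 (PPARGC1B, higher) had an unadjusted p under 0.05, beside 5.97%. In the interaction, 0 of 9 were called, beside 0.042%, and 2 of 9 (PPARGC1B and ESRRB) had an unadjusted p under 0.05, beside 10.9%. With 9 genes, counts of 1 or 2 lie near these shares of all genes.

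Regulators whose 2 libraries of one group both lay above or both below those of the other were also counted. In TH vs YH, 5 of 9 did not overlap (PPARG and PPARGC1B higher in TH, and PPARA, ESRRB and ESRRG lower), beside 52.5% of all genes. In TL vs YL, 2 of 9 did not overlap (PPARG and PPARGC1B, both higher in TL), beside 41.5%. In TH vs TL, 6 of 9 did not overlap (ESRRA higher in TH, and PPARA, PPARD, PPARGC1B, ESRRB and ESRRG lower), beside 48.5%. In YH vs YL, 2 of 9 did not overlap (PPARGC1B and ESRRB, both higher in YH), beside 36.3%. These 2 of 9 were without overlap in opposite directions between sites in the 2 breeds, beside 11.3% of all genes. The median log2 fold change of the 9 regulators was -0.09 in TH vs YH, 0.07 in TL vs YL, -0.18 in TH vs TL and 0.05 in YH vs YL, where that of all genes tested was -0.03, 0.02, -0.02 and 0.03.

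**Figure D2:**
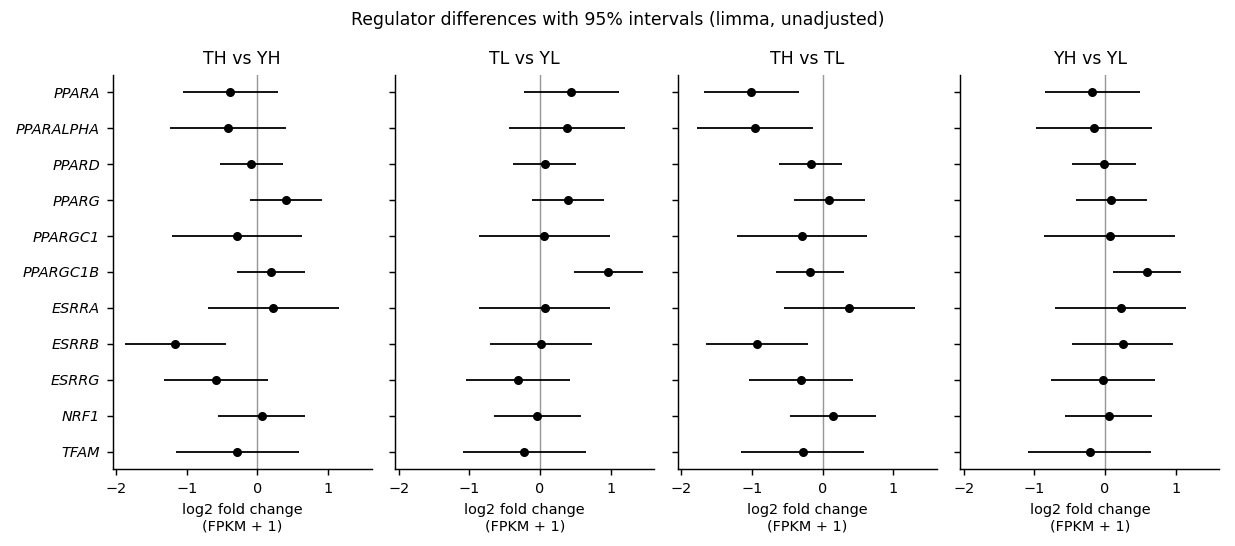
Log2 fold change of FPKM + 1 (horizontal axes) of each regulator and related row in the 4 comparisons, with points at the limma estimate and bars over its 95% interval, not adjusted for the number of genes. The intervals that leave out 0 are those of PPARGC1B in TL vs YL and YH vs YL, of ESRRB in TH vs YH and TH vs TL, and of PPARA and PPARALPHA in TH vs TL; none of these passed the adjusted threshold.

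PPARA encodes the receptor that is the main fatty acid sensor of heart and liver. Its row (ENSSSCG00000024896) lies on an unplaced scaffold of Sscrofa10.2, GL895405.2, from 3658 to 6512. PPARA was at 1.04 and 1.49 FPKM in TH1 and TH2, 2.67 and 4.62 in TL1 and TL2, 2.22 and 1.70 in YH1 and YH2, and 1.96 and 2.77 in YL1 and YL2. Both TH libraries lay below the other 6, and both TL libraries lay above those of TH, with TL2 the highest of all. These values rest on few reads, from 17 in TH1 to 106 in TL2.

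The TL mean was 2.88-fold the TH mean, and the log2 fold change in TH vs TL was -1.01 (SE 0.28, 95% interval -1.68 to -0.34, limma adjusted p = 0.278). Over the alternatives this adjusted p ran from 0.144 to 0.992. The difference of TH from YH, -0.39 (SE 0.28, adjusted p = 0.523, 95% interval -1.06 to 0.29), did not pass and was -0.24 without TH1, -0.60 with a pseudocount of 0.1 and -0.75 on the read values that the authors scaled by library. PPARALPHA, the second row of the gene (chromosome 5, 424928 to 488440), rests on more reads, from 50 to 295. It was at 1.31 and 2.61 FPKM in TH1 and TH2, 3.82 and 5.50 in TL1 and TL2, 2.91 and 2.79 in YH1 and YH2, and 2.31 and 4.59 in YL1 and YL2. Its TH libraries again lay below both TL libraries, and its log2 fold change in TH vs TL was -0.95 (SE 0.34, adjusted p = 0.363). Without TH1 that value was -0.63 and without TH2 it was -1.28. The ratio of PPARALPHA to PPARA kept between 1.18 and 1.75 in all 8 libraries.

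PPARD, the receptor form found in most tissues, was the steadiest of the set. On chromosome 7 it spans 36141605 to 36215260 (ENSSSCG00000001539). PPARD was at 5.35 and 5.92 FPKM in TH1 and TH2, 6.53 and 6.35 in TL1 and TL2, 5.78 and 6.30 in YH1 and YH2, and 5.67 and 6.56 in YL1 and YL2, on 390 to 787 reads. Its highest library was 1.23-fold its lowest. The TH libraries lay below those of TL by a log2 fold change of -0.17 (SE 0.19, 95% interval -0.62 to 0.28, adjusted p = 0.788), which was -0.10 without TH1 and -0.26 with median-ratio scaling.

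PPARG encodes the receptor that drives fat cell formation and fat storage. The gene (ENSSSCG00000011579) spans chromosome 13 from 75578054 to 75650239. PPARG was at 2.73 and 2.64 FPKM in TH1 and TH2, 2.12 and 2.82 in TL1 and TL2, 1.86 and 1.71 in YH1 and YH2, and 1.87 and 1.39 in YL1 and YL2, on 59 to 131 reads. All 4 Tibetan libraries lay above all 4 Yorkshire libraries. On the log2 scale the difference was 0.40 in TH vs YH (SE 0.21, adjusted p = 0.394) and 0.40 in TL vs YL (SE 0.21, adjusted p = 0.655), so the order of the libraries did not pass the test at either site. The lowland value was 0.25 without TL2 and 0.26 without YL2, against 0.54 without TL1 and 0.53 without YL1, and the highland value was 0.66 on scaled reads.

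Fat cells express PPARG, and 8 of 12 adipocyte markers were in the table. Of them, LEP (leptin) was listed at 0 in 7 libraries and at 0.112 FPKM in YH2, and RETN at 0 in 6. PLIN1, a fat droplet coat protein, was between 0.0284 and 1.52 FPKM. CIDEC, a fat droplet protein, was at 0.410 and 0.594 FPKM in TH1 and TH2, 1.88 and 0.371 in TL1 and TL2, 0.392 and 0.232 in YH1 and YH2, and 0.293 and 1.35 in YL1 and YL2, so TH lay above YH (log2 fold change 0.19, adjusted p = 0.846). Of the 4 markers tested, CIDEC was the only one higher in TH vs YH, and 3 were lower, beside 52.3% of all genes. The median log2 fold change of the 4 was -0.58. The summed level of these 8 markers was 18.9 to 25.3 FPKM in TH, 15.6 to 16.0 in TL, 45.0 to 66.4 in YH and 42.9 in YL1. AQP7 and LIPE, which heart muscle also expresses, made up 66.9% to 97.7% of the sum in these 7 libraries. In YL2 it was 1535 FPKM, of which PCK1, a gene that kidney expresses too, made up 1499. The part of fat cells in the PPARG values was not tested.

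With the row named PPARA, the 3 PPAR genes together gave 9.12 to 13.8 FPKM per library, and PPARD made up 46.1% to 64.9% of this sum. PPARA made up the smallest share in the TH libraries, 11.4% and 14.9%, against 17.5% to 33.5% in the other 6. PPARG made up 30.0% and 26.2% in TH, against 13.0% to 20.5% elsewhere. These shares leave out PPARALPHA, the more abundant row of the same gene, and they depend on the row used. In alternatives added after seeing the data, PPARD made up 43.3% to 58.4% with the PPARALPHA row in place of the PPARA row, and 32.9% to 51.3% with the 2 rows summed. The PPARA share in TH was then 14.0% and 23.4%, against 23.4% to 37.5% in the other 6 libraries, so that TH2 and YL1 were level, or with the 2 rows summed 22.5% and 32.4%, against 35.9% to 52.5%. That of PPARG was 29.1% and 23.6%, against 11.1% to 19.2%, or with the 2 rows summed 26.2% and 20.8%, against 9.09% to 15.8%. The order of PPARG and PPARA in TH2 was not settled, with PPARG at 2.64 FPKM and PPARA at 1.49, 2.61 or 4.11 FPKM by the row used.

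**Figure D3:**
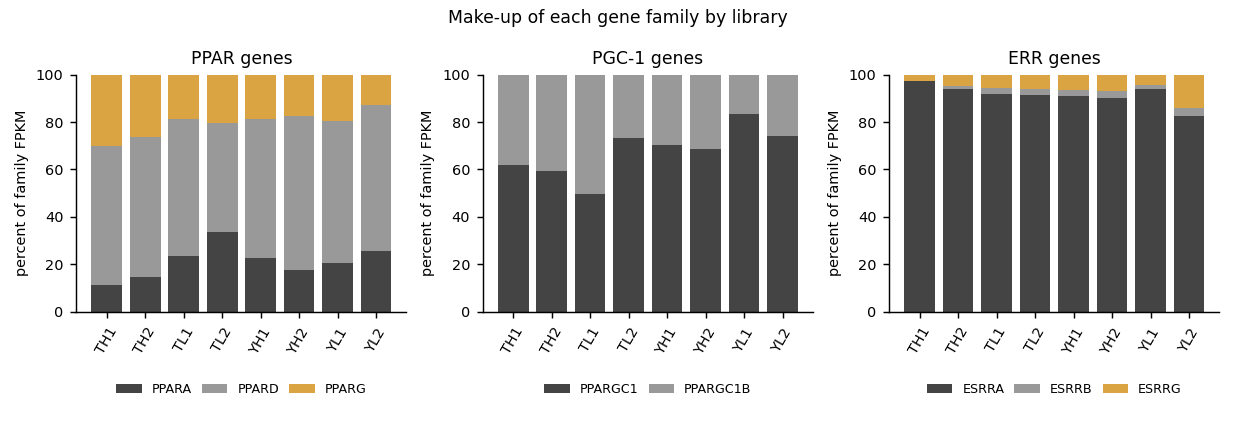
Share of the summed FPKM of each gene family (vertical axes, percent) taken by each member in each library (horizontal axes). ESRRA takes 82.3% to 97.3% of ERR FPKM, PPARD takes 46.1% to 64.9% of PPAR FPKM, where PPARA is the row of that name without PPARALPHA, and the share of PPARGC1B in PGC-1 FPKM runs from 16.6% in YL1 to 50.4% in TL1.

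PPARGC1, the row of the PGC-1 alpha gene, lies on the unplaced scaffold GL896199.1, from 15044 to 57267. PGC-1 alpha is the coactivator whose level responds to cold, exercise and fasting. PPARGC1 was at 7.04 and 7.01 FPKM in TH1 and TH2, 5.52 and 13.8 in TL1 and TL2, 9.85 and 7.87 in YH1 and YH2, and 9.78 and 7.19 in YL1 and YL2, on 362 to 1040 reads. The 2 pools of TL differed 2.50-fold and held both the lowest and the highest value of the series, while those of TH were nearly the same. TH lay below YH without overlap, with a log2 fold change of -0.29 (SE 0.39, adjusted p = 0.732), which was -0.15 without YH1 and -0.44 without YH2. The other comparisons overlapped, and TH vs TL ran from -0.88 without TL1 to 0.30 without TL2.

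PPARGC1B encodes PGC-1 beta, a coactivator that sustains basal mitochondrial content, and was the only one of the 9 genes whose 4 groups did not overlap in FPKM. It lies on chromosome 2, from 157708575 to 157732501, as ENSSSCG00000014437. PPARGC1B was at 4.35 and 4.78 FPKM in TH1 and TH2, 5.61 and 5.02 in TL1 and TL2, 4.17 and 3.59 in YH1 and YH2, and 1.94 and 2.53 in YL1 and YL2. Reads on the gene were 259 and 338 in TH1 and TH2, 445 and 480 in TL1 and TL2, 362 and 469 in YH1 and YH2, and 124 and 277 in YL1 and YL2. Both TL libraries were highest, then TH, then YH, and both YL libraries were lowest.

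At the lowland site the TL mean was 2.38-fold the YL mean. On the log2 scale TL vs YL gave 0.97 (SE 0.20, 95% interval 0.49 to 1.45), with an unadjusted p of 0.00218 and a limma adjusted p of 0.253. All 4 pairs of a TL with a YL library had this direction, and the adjusted p ran from 0.0681 to 1 over the alternatives. Without YL2, the library with kidney transcripts, the log2 fold change was 1.10 (adjusted p = 0.192), and the lone YL1 was then assumed to vary like the other groups. Without YL1 it was 0.84 (adjusted p = 0.0681).

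Within Yorkshire pigs the YH mean was 1.73-fold the YL mean, a log2 fold change of 0.60 (SE 0.20, adjusted p = 0.765), and it was 0.73 without YL2, 0.46 without YL1 and 1.08 on scaled reads (adjusted p = 0.741). Within Tibetan pigs the direction was the opposite, with TH below TL by a log2 fold change of -0.18 (SE 0.20, adjusted p = 0.782), or -0.12 without TL1 and -0.32 on scaled reads. The interaction, which tests the difference between these site effects, was -0.78 (SE 0.29, 95% interval -1.46 to -0.10, unadjusted p = 0.031, adjusted p = 0.410) and did not pass, nor did its -1.40 on scaled reads (adjusted p = 0.357). At the highland site the breed difference was 0.19 (SE 0.20, adjusted p = 0.665), 0.11 without YH2 and 0.09 with median-ratio scaling, and it turned to -0.16 on scaled reads, where TH and YH overlapped. PPRC1, the third gene of the family and a coactivator of growth-linked mitochondrial genes, was singled out after its values were seen. It was at 6.00 and 5.67 FPKM in TH1 and TH2, 3.50 and 4.10 in TL1 and TL2, 3.92 and 5.50 in YH1 and YH2, and 2.80 and 2.67 in YL1 and YL2. YH vs YL gave 0.60 (SE 0.22, adjusted p = 0.784), or 0.40 without YH2, and TH lay above TL, by 0.51 (SE 0.22, adjusted p = 0.440), where PPARGC1B lay below. The interaction of PPRC1 was -0.08 (adjusted p = 0.925).

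The ratio of the 2 PGC-1 genes was widest in YL1. PPARGC1 exceeded PPARGC1B 5.03-fold in YL1 and 2.84-fold in YL2, while the ratio was 1.62 and 1.47 in the TH libraries, 0.983 in TL1, 2.74 in TL2, and 2.36 and 2.19 in the YH libraries. The 2 TL libraries lay at opposite ends of the Tibetan range, with PPARGC1 at 5.52 FPKM in TL1 and 13.8 in TL2, and PPARGC1B at 5.61 and 5.02.

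ESRRA encodes ERR alpha, the most abundant ERR of heart muscle and a direct partner of PGC-1 proteins. The gene (ENSSSCG00000013028) spans chromosome 2 from 6867950 to 6878759. ESRRA was at 96.4 and 74.0 FPKM in TH1 and TH2, 62.4 and 67.0 in TL1 and TL2, 87.6 and 59.6 in YH1 and YH2, and 89.7 and 42.4 in YL1 and YL2. It is the deepest of the set, with at least 5503 reads in each library, yet its 2 pools differed 2.12-fold in YL and 1.47-fold in YH. TH lay above TL without overlap, with a log2 fold change of 0.38 (SE 0.39, 95% interval -0.55 to 1.31, adjusted p = 0.761), which was 0.19 without TH1 and 0.57 without TH2. The differences against YL changed direction with 1 library, from 0.07 in TL vs YL and 0.22 in YH vs YL to -0.47 and -0.31 without YL2.

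ESRRB, the ERR best known from stem cells and the inner ear, was the least abundant regulator and had the widest range. It lies on chromosome 7, from 105628139 to 105743716, as ENSSSCG00000002388. ESRRB was at 0.0603 and 0.935 FPKM in TH1 and TH2, 1.77 and 1.69 in TL1 and TL2, 2.34 and 2.09 in YH1 and YH2, and 1.58 and 1.83 in YL1 and YL2. These values stand for 2 and 34 reads in TH1 and TH2, 73 and 83 in TL1 and TL2, 102 and 125 in YH1 and YH2, and 51 and 105 in YL1 and YL2. Both TH libraries lay below the other 6, and the 2 YH libraries were the highest.

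The 2 TH libraries differed widely, TH2 being 15.5-fold TH1 with an exact 95% counting interval from 3.97 to 133. The YH mean was 4.45-fold the TH mean. The log2 fold change in TH vs YH was -1.16 (SE 0.30, 95% interval -1.88 to -0.45), with an unadjusted p of 0.00655 and a limma adjusted p of 0.172 that ran from 0.0419 to 0.651 over the alternatives. Without TH1 it was -0.73 (adjusted p = 0.386) and without TH2 it was -1.60 (adjusted p = 0.0419), so 1 library decided on which side of the threshold it fell. The size also depends on the scale, since log2(FPKM + 1) holds low values together: it was -2.50 with a pseudocount of 0.1 (adjusted p = 0.234) and -3.19 on scaled reads (adjusted p = 0.220).

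The TL mean was 3.47-fold the TH mean, a log2 fold change in TH vs TL of -0.93 (SE 0.30, adjusted p = 0.325), and it was -0.49 without TH1, -1.36 without TH2, -2.16 with a pseudocount of 0.1 and -2.66 on scaled reads. In Yorkshire pigs the highland libraries lay above the lowland ones, by 0.25 (SE 0.30, adjusted p = 0.857), or 0.55 on scaled reads. The interaction was -1.18 (SE 0.43, 95% interval -2.19 to -0.16, unadjusted p = 0.029, adjusted p = 0.406) and did not pass. It was -0.74 without TH1, -1.61 without TH2, -2.52 with a pseudocount of 0.1 and -3.21 on scaled reads.

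Of 11275 genes searched, those whose log2(FPKM + 1) followed ESRRB most closely over the 8 libraries, by the root mean square difference of centred values, were KLHL12 (0.0907), CALCOCO1 (0.0974) and ITGB5 (0.0997). Over the 7 libraries without YL2 they were KLHL12 (0.0821), NOMO1 (0.0888) and PODN (0.0916). KLHL12 was at 3.08 and 6.56 FPKM in TH and at 9.29 FPKM or more in the other 6 libraries.

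ESRRG encodes ERR gamma, the receptor of oxidative muscle that comes up in the heart around birth. Its place is chromosome 10, from 8644060 to 8823152 (ENSSSCG00000010814). ESRRG was at 2.64 and 3.91 FPKM in TH1 and TH2, 3.94 and 4.57 in TL1 and TL2, 6.34 and 4.52 in YH1 and YH2, and 4.08 and 7.27 in YL1 and YL2, on 155 to 619 reads. Both TH libraries lay below the other 6, although TH2 and TL1 were nearly level. These gave log2 fold changes of -0.59 in TH vs YH (SE 0.31, 95% interval -1.33 to 0.15, adjusted p = 0.396) and -0.31 in TH vs TL (SE 0.31, adjusted p = 0.756). Without TH1 they were -0.37 and -0.095, without TH2 the latter was -0.53, and without YH1 the former was -0.38.

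Within the ERR family ESRRA exceeded ESRRG 36.5-fold and 18.9-fold in TH, 15.8-fold and 14.7-fold in TL, 13.8-fold and 13.2-fold in YH, 22.0-fold in YL1 and 5.83-fold in YL2. The 2 ends of this range were TH1 and YL2, the 2 libraries most often at an end of the range over all genes tested. ESRRB never made up more than 3.56% of ERR FPKM.

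NRF1 encodes the nuclear respiratory factor that binds promoters of respiratory chain genes and of TFAM. It lies on chromosome 18, from 20057526 to 20102918, as ENSSSCG00000016566. NRF1 was at 3.96 and 2.43 FPKM in TH1 and TH2, 2.97 and 2.49 in TL1 and TL2, 3.28 and 2.67 in YH1 and YH2, and 2.43 and 3.27 in YL1 and YL2, on 108 to 258 reads. The groups overlapped in every comparison, and the smallest adjusted p was 0.878. Its TH vs YH difference of 0.06 turned to -0.21 without TH1. The row named TFAM, after the factor that packages and transcribes mitochondrial DNA, was at 11.3 and 20.0 FPKM in TH1 and TH2, 15.7 and 21.9 in TL1 and TL2, 20.5 and 16.9 in YH1 and YH2, and 16.7 and 28.4 in YL1 and YL2. Its row (ENSSSCG00000029824, chromosome 14, 100777164 to 100777856) spans 693 bases and held 7 to 32 reads, and it may not stand for the TFAM transcript, since the table of gene names gives TFAM to another identifier. The groups overlapped in every comparison, with a smallest adjusted p of 0.720, and the TH vs YH difference of -0.29 turned to 0.10 without TH1.

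Receptor partners and co-regulators were read from a list of 22 genes, of which 18 were in the table and 17 were tested. None was called in limma in any comparison, with unadjusted p under 0.05 for 1 of 17 lower in TH vs YH, beside 8.47% of all genes, 0 in TL vs YL, 1 higher in TH vs TL, beside 5.81%, and 1 higher in YH vs YL, beside 4.39%. RXRG, a retinoid X receptor that pairs with PPARs, was the most abundant, at 53.3 and 35.5 FPKM in TH1 and TH2, 55.0 and 56.9 in TL1 and TL2, 109 and 81.3 in YH1 and YH2, and 93.7 and 37.2 in YL1 and YL2. YH lay above TH and TL, and YL spanned nearly the whole range. Its log2 fold change in TH vs YH was -1.10 (SE 0.44, adjusted p = 0.297). The next most abundant were PNRC2, a nuclear receptor coregulator, at 48.9 to 61.1 FPKM, SIRT3, the mitochondrial deacetylase, at 10.96 to 29.4 FPKM, and NCOR1, a corepressor, at 7.53 to 13.5 FPKM.

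The list of inputs that act on the PGC-1 genes or proteins, such as the energy sensor AMPK, calcineurin and MEF2 factors, held 24 genes, of which 20 were in the table and tested. None was called in limma, with unadjusted p under 0.05 for 1 of 20 lower in TH vs YH, beside 8.47% of all genes, 2 higher in TL vs YL, beside 5.9%, 0 in TH vs TL and 3 higher in YH vs YL, beside 4.39%. The median log2 fold change was -0.26 in TH vs YH, with 18 of 20 lower beside 52.3% of all genes, and -0.19 in TH vs TL, with 15 of 20 lower beside 51.9%. It was 0.27 in TL vs YL, with 16 of 20 higher beside 51.6%, and 0.34 in YH vs YL, with 15 of 20 higher beside 54%. Without YL2 the latter pair was 0.09, with 11 of 20 higher, and 0.14, with 15 of 20 higher, and without YL1 it was 0.62 and 0.47. Without TH1 the values of TH were -0.18 and -0.14, and without TH2 they were -0.36 and -0.32. CAMK2D, the main calcium/calmodulin kinase II of heart, was at 122 to 189 FPKM in 7 libraries and at 61.6 in YL2. PRKAG1, a subunit of AMPK, was at 26.1 to 47.1 FPKM and PRKAG2, another, at 14.8 to 43.6 FPKM, each lowest in YL2. MEF2D, which binds the PGC-1 alpha promoter, was at 26.8 to 40.0 FPKM in 7 libraries and at 12.6 in YL2. MEF2C, a muscle relative of MEF2D singled out after its values were seen, was at 9.16 and 4.79 FPKM in YL and 10.7 to 15.2 FPKM elsewhere, with log2 fold changes of 1.06 in TL vs YL (SE 0.31, adjusted p = 0.359) and 0.96 in YH vs YL (SE 0.31, adjusted p = 0.764). Without YL2 these were 0.65 and 0.56, and without YL1, which leaves YL2 as the lone YL library, both passed (adjusted p = 0.0217 and 0.0276).

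The fatty acid genes that PPARs regulate lay lower in Tibetan than in Yorkshire pigs at the highland site by count. Of 39 listed genes, 32 were in the table and 30 were tested. In TH vs YH the median log2 fold change was -0.61, against -0.03 over all genes, and 25 of 30 were lower, beside 52.3% of all genes. One, UCP3, was called lower in limma, 0 higher, and 12 had an unadjusted p under 0.05, all lower, beside 8.47% of all genes that were lower by that measure. UCP3 passed the filter of 1 FPKM in 2 libraries only through Yorkshire libraries, so its call is no support for the direction of the list. In TL vs YL the median was -0.30, 20 of 30 were lower, beside 48.3% of all genes, none was called and 10 had an unadjusted p under 0.05, all lower, beside 3.04%. The median in TH vs YH was -0.72 without TH1 and -0.42 without TH2, and that in TL vs YL was -0.35 without YL2 and -0.23 without YL1.

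Between sites the list divided. In TH vs TL the median was -0.05, and 0.13 without TH2 or -0.15 without TH1, none was called, and 5 of 30 genes had an unadjusted p under 0.05 in each direction, beside 5.81% higher and 5.53% lower of all genes. In YH vs YL the median was 0.03, none was called, and 2 had an unadjusted p under 0.05, both higher, beside 4.39%. The most abundant members did not pass in any comparison. FABP3, the fatty acid binding protein of heart, was at 272 to 464 FPKM (the more abundant of 2 rows of that name). CD36, the fatty acid translocase, was at 208 to 486 FPKM in 7 libraries and at 109 in YL2. HADHA and HADHB, the subunits of the trifunctional protein of fatty acid oxidation, were at 172 to 412 and 149 to 360 FPKM, with all 4 TH and TL libraries of HADHA below both YH libraries.

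UCP3, a mitochondrial carrier of muscle that fatty acids induce, was at 0.264 and 0.0831 FPKM in TH1 and TH2, 0.0477 and 0.132 in TL1 and TL2, 3.08 and 2.63 in YH1 and YH2, and 1.09 and 0.682 in YL1 and YL2. All 4 Tibetan libraries lay below all 4 Yorkshire libraries, and YH lay above YL. UCP3 reached 1 FPKM only in YH1, YH2 and YL1, so it entered the test through the groups where it is high. The log2 fold change in TH vs YH was -1.72 (SE 0.22, limma adjusted p = 0.0487). This call sits at the threshold, since the adjusted p ran from 0.0323 to 0.373 over 15 alternatives and was under 0.05 in 4 of them. Of the 8 libraries left out in turn, it was lost without TH1, TL1, TL2, YH1 or YH2. Leaving out a TL library does not move the TH vs YH fold change, only its estimated error. The log2 fold change was -0.78 in TL vs YL (SE 0.22, adjusted p = 0.343) and 1.04 in YH vs YL (SE 0.22, adjusted p = 0.582). With a pseudocount of 0.1 these 3 values were -3.51, -2.38 and 1.61, and on scaled reads -4.22, -3.26 and 1.76. UCP2, its widely expressed relative, singled out after its values were seen, was at 5.56 to 6.11 FPKM in TH, 4.86 to 6.07 in TL, 13.3 to 16.8 in YH and 5.51 to 7.37 in YL, and YH stood alone above the rest (TH vs YH -1.23, SE 0.23, adjusted p = 0.0983). In YH vs YL both genes passed only without YL1 (adjusted p = 0.0353 for UCP3 and 0.0313 for UCP2).

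A further 6 fatty acid genes, singled out after their values were seen, showed 2 patterns, none of which passed with all 8 libraries. PDK4, the kinase that shuts pyruvate out of oxidation, was at 183 and 154 FPKM in TH1 and TH2, 6.50 and 34.7 in TL1 and TL2, 303 and 253 in YH1 and YH2, and 359 and 77.7 in YL1 and YL2. Both TL libraries lay below all others. On the log2 scale this was 3.37 in TH vs TL (SE 0.88, adjusted p = 0.261) and -3.36 in TL vs YL (SE 0.88, adjusted p = 0.322), the latter -4.46 without YL2 and -2.27 without YL1. Without TL1 they were 2.24 and -2.24.

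ANGPTL4, a secreted inhibitor of lipoprotein lipase, was at 21.5 and 10.04 FPKM in TH1 and TH2, 3.16 and 3.42 in TL1 and TL2, 11.2 and 9.78 in YH1 and YH2, and 7.43 and 15.3 in YL1 and YL2. PLIN2, a lipid droplet coat protein, was at 8.45 and 10.1 FPKM in TH1 and TH2, 1.40 and 2.33 in TL1 and TL2, 24.6 and 23.9 in YH1 and YH2, and 5.95 and 21.2 in YL1 and YL2 (the more abundant of 2 rows). SLC25A20, the carnitine-acylcarnitine carrier, was at 38.8 and 27.8 FPKM in TH1 and TH2, 20.5 and 16.6 in TL1 and TL2, 45.5 and 34.0 in YH1 and YH2, and 40.4 and 44.9 in YL1 and YL2. All 3 were lowest in both TL libraries, the group in which PPARA and PPARALPHA were highest on average. In TH vs TL the log2 fold changes were 1.88 for ANGPTL4 (SE 0.42, adjusted p = 0.220), 1.86 for PLIN2 (SE 0.51, adjusted p = 0.272) and 0.80 for SLC25A20 (SE 0.26, adjusted p = 0.327). In TL vs YL they were -1.45, -2.13 and -1.17, and without YL2 they were -0.98, -1.30 and -1.09. Without YL1, ANGPTL4 (adjusted p = 0.0413) and PLIN2 (adjusted p = 0.00248) passed in TL vs YL, and without YL1 or YL2 PLIN2 passed in TH vs TL (adjusted p = 0.041 in both).

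**Figure D4:**
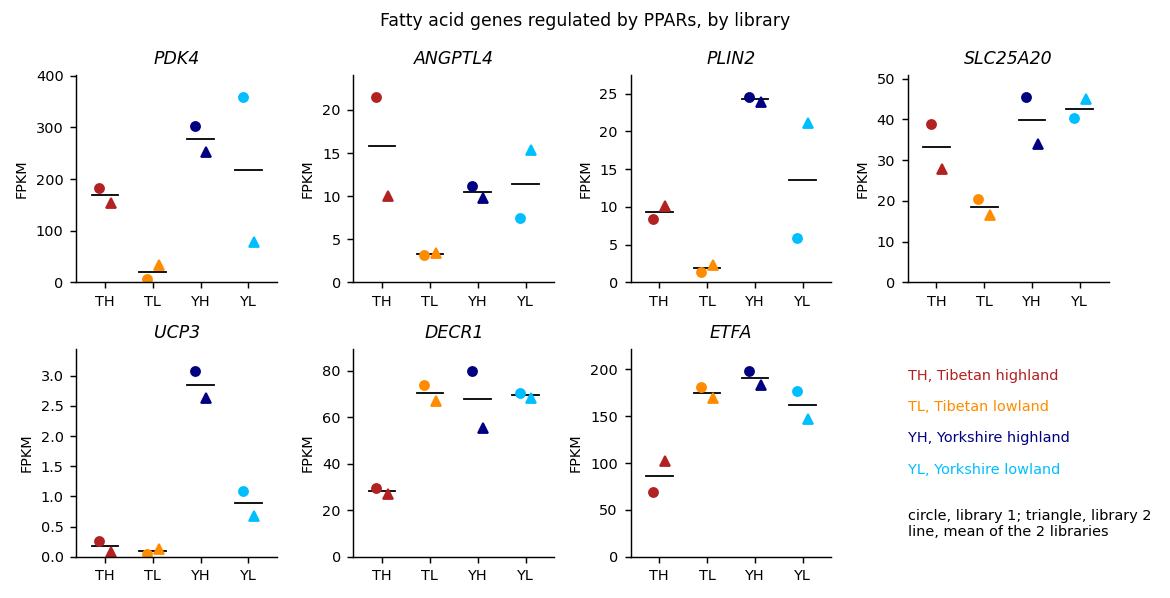
FPKM (vertical axes, starting at 0) of 7 PPAR-regulated fatty acid genes in each library, by group (horizontal axes); circles are library 1, triangles library 2, and lines the mean of the 2. PDK4, ANGPTL4, PLIN2 and SLC25A20 are lowest in both TL libraries, DECR1 and ETFA are lowest in both TH libraries, and UCP3 is lower in all 4 Tibetan libraries than in all 4 Yorkshire libraries.

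The second pattern had TH lowest. DECR1, a reductase needed to oxidise polyunsaturated fatty acids, was at 29.7 and 27.2 FPKM in TH1 and TH2, 74.1 and 67.0 in TL1 and TL2, 79.8 and 55.5 in YH1 and YH2, and 70.5 and 68.3 in YL1 and YL2. ETFA, the alpha subunit of the flavoprotein that takes electrons from acyl-CoA dehydrogenases, was at 69.7 and 102 FPKM in TH1 and TH2, 181 and 169 in TL1 and TL2, 198 and 183 in YH1 and YH2, and 177 and 147 in YL1 and YL2. Both TH libraries lay below the other 6 for both genes. In TH vs YH the log2 fold changes were -1.20 for DECR1 (SE 0.24, adjusted p = 0.107) and -1.17 for ETFA (SE 0.26, adjusted p = 0.134), and in TH vs TL they were -1.28 (adjusted p = 0.179) and -1.04 (adjusted p = 0.255). ETFA passed in TH vs YH without TH2 (adjusted p = 0.046).

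Other features of the libraries moved with TH and with breed. The summed FPKM of 10 atrial markers (of 13 listed) was 8666 to 11605 in TH, 1527 to 2617 in TL, 657 to 1239 in YH and 488 to 2918 in YL. NPPA, the atrial natriuretic peptide gene, was at 2263 and 2146 FPKM in TH and between 23.1 and 108 FPKM in the other 6 libraries (TH vs YH 5.53, SE 0.68, adjusted p = 0.0448, with 0.0349 to 0.248 over the alternatives). The summed FPKM of 12 immediate early genes (of 15 listed) was 691 to 839 in TH, 699 to 1035 in TL, 145 to 247 in YH and 142 to 192 in YL. FOS, one of them, was called higher in TH than in YH (3.64, SE 0.33, adjusted p = 0.0201, with 0.0215 to 0.133 over the alternatives), and ZFP36 was listed at 0 in 5 libraries. Both calls were lost without TH1, TL1, TL2, YH1 or YH2, though leaving out a TL library moves only the estimated error and not these fold changes. The summed FPKM of 7 blood cell genes (of 8 listed) was 1635 to 3115 in TH, 1240 to 1409 in TL, 1033 to 1069 in YH and 533 to 635 in YL, and of the 5 tested 4 were higher at an unadjusted p under 0.05 in TH vs YH, beside 7.71% of all genes, and 4 in TL vs YL, beside 5.9%. The summed FPKM of 8 skeletal muscle markers (of 14 listed) was 22308 to 31308 in TH and 7060 to 18255 in the other 6 libraries, most of it ACTA1, an actin that heart muscle also expresses. The fast fibre myosins MYH1 and MYH2 were at 0.0373 FPKM or less in every library, and TNNC2, the fast fibre troponin C, was at 3.24 and 3.41 FPKM in TH and 0.785 or less elsewhere. The part of these features in the values of ESRRB, PPARG, PPARGC1B and the fatty acid genes was not tested.

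The respiratory chain genes that ERRs and PGC-1 proteins drive were read from a list of 37, of which 33 were in the table and tested. None was called in limma in any comparison, with unadjusted p under 0.05 for 6 of 33 lower in TH vs YH, beside 8.47% of all genes, 0 in TL vs YL, 4 lower in TH vs TL, beside 5.53%, and 1 higher in YH vs YL, beside 4.39%. The median log2 fold change was -0.18 in TH vs YH, -0.12 in TH vs TL, 0.31 in TL vs YL and 0.28 in YH vs YL. Those against YL turned to -0.11 and -0.18 without YL2, and to 0.82 and 0.76 without YL1. Those of TH moved to -0.42 and -0.47 without TH1 and turned to 0.07 and 0.06 without TH2, so 1 library decided their direction. NDUFA4, a subunit of cytochrome oxidase, was at 2646 to 4642 FPKM in 7 libraries and at 1965 in YL2. COX7A1, the muscle form of a cytochrome oxidase subunit, was at 2339 to 4383 and at 1492, SLC25A4, the ADP/ATP carrier, at 1661 to 3033 and at 1079, and ATP5B, the beta subunit of ATP synthase, at 1256 to 1982 and at 1032.

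Of 32 listed genes for mitochondrial DNA upkeep, transcription and protein import, 23 were in the table and 21 were tested. None was called in limma, with unadjusted p under 0.05 for 1 of 21 higher and 2 lower in TH vs YH, beside 7.71% and 8.47% of all genes, 1 and 1 in TL vs YL, beside 5.9% and 3.04%, 2 and 3 in TH vs TL, beside 5.81% and 5.53%, and 0 in YH vs YL. Medians lay between -0.08 and 0.05, and between -0.18 and 0.25 with 1 library left out. HSPE1, a mitochondrial chaperonin, was at 851 and 483 FPKM in TH and 309 to 452 elsewhere, HSPD1, its partner, at 91.3 to 161, FIS1, of mitochondrial fission, at 134 to 257, and TOMM22, of protein import, at 79.1 to 148.

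The 13 genes of the mitochondrial genome, whose transcription needs TFAM, were none of them called in limma, and 0 had an unadjusted p under 0.05 in any of the 4 comparisons. Their median log2 fold change was 0.46 in TH vs YH and 0.49 in TH vs TL, with 13 of 13 higher in TH, but without TH1 these medians were 0.01 and 0.08. In TL vs YL and YH vs YL the medians were 0.04 and 0.05, and without YL2 both were -0.76. Without TH2 the medians of TH were 0.99 and 0.98, and without YL1 those against YL were 0.89 and 0.83, so 1 library decided the median of this list in each comparison.

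**Figure D5:**
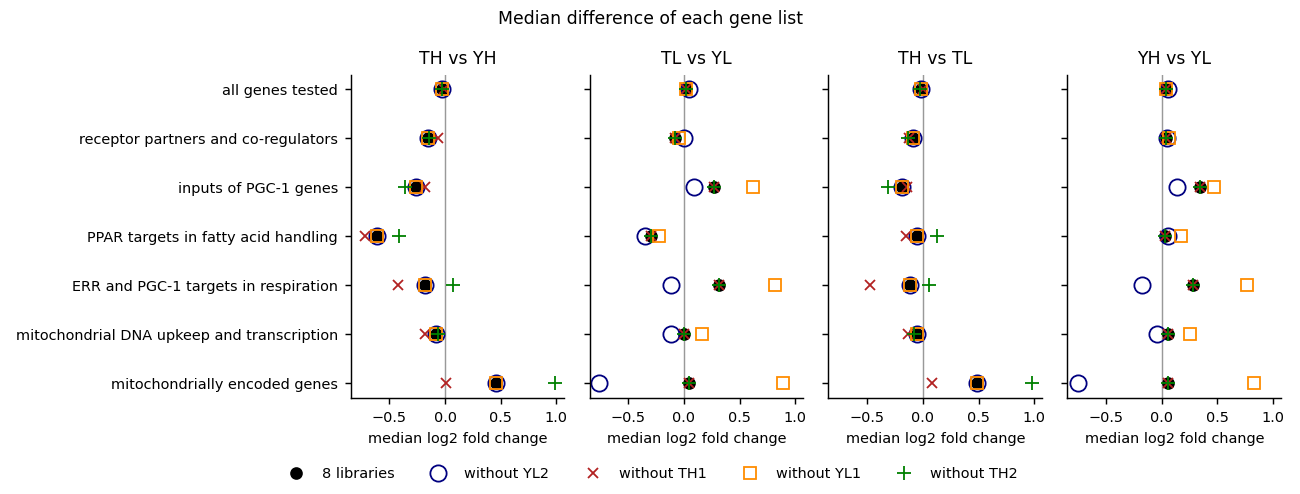
Median log2 fold change of FPKM + 1 (horizontal axes) over all genes tested and over each of 6 gene lists in the 4 comparisons, with all 8 libraries (filled circles), without YL2 (open circles), TH1 (crosses), YL1 (squares) or TH2 (plus signs). The fatty acid list lies at -0.61 in TH vs YH against -0.03 over all genes, and the mitochondrially encoded list moves from 0.46 to 0.01 without TH1 and to 0.99 without TH2, and from 0.04 to -0.76 in TL vs YL without YL2.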

How the data were processed

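RNA-seq of 8 heart libraries was analysed from the table that the authors deposited, with genes of Sscrofa10.2. The submitters' notes name Bowtie 0.12.5, TopHat2 2.0.9 and DESeq 1.10.1, and the authors computed FPKM with Cufflinks. Beside FPKM the table holds a read signal per gene, divided by the authors by a size factor of each library. Dividing this deposited signal by the value of 1 read gave whole numbers (within 0.05) for 99.7% to 99.8% of low values, and the reads printed come from this. Because a few values lay below 1 read, no count test was run. The 8 columns of group means and ratios were not used. The sample descriptions of YL1 and YL2 name the file of TL, against their titles, breed and column names, which were followed. The table itself gives symbols of 14256 genes, a gene name table added 1025, and 3694 were left as Ensembl IDs.

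Differences were tested by limma 3.58.1 (R 4.3.3) with a trend in log2(FPKM + 1) over the 8 libraries together, a scale that understates changes of low genes. Tested were 11913 genes that reached 1 FPKM in 2 or more libraries, with 4 residual and 2.83 prior degrees of freedom, and p-values were adjusted by Benjamini-Hochberg over all of them in each comparison. The fit was tried on simulated data with a log2 change of 3 planted in 200 genes, of which it recovered 86.5%, with 5 false calls. Changes as small as those of the regulators, and an outlying library, were not simulated. The regulators and gene lists were chosen with earlier results of these data known. Genes named were all regulators, at most 4 genes per list by highest mean FPKM, every list gene called, the 3 genes nearest in pattern to the regulator of widest range, marker genes at or near 0 or that make up most of a marker sum, and genes said to be chosen after their values were seen. The alternatives were a pseudocount of 0.1, no filter, a filter of 10 reads (13775 genes), median-ratio scaling from 2878 genes, the replicate number as a block, the 4 libraries of a comparison alone, a stricter call (adjusted p under 0.01 and log2 fold change over 1), each library left out in turn, and, added after seeing the data, the scaled read signal and, for the PPAR shares, the other row of PPARA. A group left with 1 library was assumed to vary like the others. Python 3.11.15, numpy 2.4.6, pandas 2.3.3 and matplotlib 3.10.9 were used for tables and figures. Counting intervals cover counting error only.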

Additional observations from a re-analysis of the deposited data

Results flagged for a closer look

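PPARGC1B and ESRRB stood out because their libraries moved in opposite directions with site in the 2 breeds: both TH libraries lay below both TL libraries, while both YH libraries lay above both YL libraries. Among all genes tested, 11.3% were without overlap in opposite directions in these 2 comparisons. For PPARGC1B the difference between the site effects was -0.78 on the log2 scale (limma, adjusted p = 0.410, with 0.182 to 0.897 over the alternatives). For ESRRB it was -1.18 (adjusted p = 0.406, with 0.0744 to 0.897 over the alternatives). The interaction tests this difference directly, and neither gene passed it. ESRRB had 2 reads in TH1, the library with 47.8% of its reads on the mitochondrial genome, and the YL values of both genes include YL2, where kidney markers summed to 9515 FPKM. The part of either library in these values was not tested beyond leaving it out: without TH1 the difference was -0.72 for PPARGC1B and -0.74 for ESRRB, without TH2 it was -0.83 and -1.61, without YL2 it was -0.91 and -1.25, and without YL1 it was -0.65 and -1.11.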

How the results depend on the processing

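For the 9 regulators and 2 related rows, 55 fold changes were recomputed under 15 alternatives, and 60 of 814 values, in 29 fold changes, turned direction. Of the 20 fold changes whose groups did not overlap or whose unadjusted p was under 0.05, 1 turned, PPARGC1B in TH vs YH, to -0.16 on the scaled read signal (0.11 to 0.28 with 1 library left out), and 1 passed, ESRRB in TH vs YH without TH replicate 2. The other 59 turns were in the remaining 35, in fold changes of at most 0.35 in size with all 8 libraries. With median-ratio scaling PPARD turned to -0.0093, ESRRA to -0.019, ESRRB to -0.046 and PPARGC1 to -0.013 in TL vs YL, NRF1 to -0.045 in TH vs YH and -0.0028 in YH vs YL, and PPARG to -0.032 in the interaction, or -0.0043 with a pseudocount of 0.1. On the scaled signal PPARD turned to 0.096 and NRF1 to -0.041 in YH vs YL, and TFAM to 0.50 in the interaction. With 1 library left out, PPARD ran from -0.023 to 0.16 in TL vs YL and -0.10 to 0.076 in YH vs YL. PPARG ran from -0.053 to 0.24 in TH vs TL, -0.046 to 0.22 in YH vs YL and -0.14 to 0.15 in the interaction. PPARGC1 ran from -0.53 to 0.65 in TL vs YL, -0.88 to 0.30 in TH vs TL, -0.14 to 0.26 in YH vs YL and -0.94 to 0.24 in the interaction, and PPARALPHA from -0.54 to 0.22 in YH vs YL. ESRRA ran from -0.052 to 0.50 in TH vs YH, -0.47 to 0.60 in TL vs YL, -0.31 to 0.76 in YH vs YL and -0.38 to 0.69 in the interaction, and ESRRB from -0.055 to 0.081 in TL vs YL. ESRRG ran from -0.66 to 0.046 in TL vs YL, -0.38 to 0.33 in YH vs YL and -0.64 to 0.067 in the interaction. NRF1 ran from -0.21 to 0.32 in TH vs YH, -0.20 to 0.12 in TL vs YL, -0.12 to 0.42 in TH vs TL, -0.11 to 0.21 in YH vs YL and -0.17 to 0.36 in the interaction. TFAM ran from -0.67 to 0.099 in TH vs YH, -0.58 to 0.14 in TL vs YL, -0.67 to 0.10 in TH vs TL, -0.58 to 0.15 in YH vs YL and -0.45 to 0.32 in the interaction. Of the 60 turns, 48 came from leaving out 1 library, 13 of them YL2 and 8 TH1. The number of regulators called stayed 0 in each comparison, except for a range of 0 to 1 in TH vs YH with 1 library left out. The number of all genes called, which is the background here, moved far more. In TH vs YH it was 31, and it was 17 without a filter, 11 with median-ratio scaling, 6 with only the 4 libraries compared, 0 on the scaled signal, 4 under the stricter threshold and 4 to 502 with 1 library left out (502 without TH2). In TL vs YL it was 1, and it was 2 without a filter, 0 with the filter of 10 reads, 2 with the 4 libraries, 0 on the scaled signal and 1 to 1107 with 1 library left out. In TH vs TL it was 12, and it was 7 with a pseudocount of 0.1, 2 with the filter of 10 reads, 24 with the 4 libraries, 1 on the scaled signal, 6 under the stricter threshold and 4 to 43 with 1 library left out. In YH vs YL it was 0, and it was 3 with a pseudocount of 0.1 and 0 to 1008 with 1 library left out. In the interaction it was 5, and it was 8 without a filter, 1 with the filter of 10 reads, 0 on the scaled signal and 4 to 805 with 1 library left out. The highest of these counts in TL vs YL, YH vs YL and the interaction came without YL1, which leaves YL2 as the lone YL library; the cause of the other moves and of the turns was not tested.

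Nothing in the labels pairs libraries of the same number, and the deviations of same-numbered libraries correlated between -0.084 and 0.118. With a replicate block, the number of all genes called was 10 in TH vs YH, 1 in TL vs YL, 6 in TH vs TL, 0 in YH vs YL and 4 in the interaction, and no regulator was called. Tests of counts with edgeR or DESeq2 were planned and not run, because the signal could not be turned into whole reads for every gene.

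Depth limits the rows with few reads most: ESRRB rests on 2 reads in TH1, TFAM on 7 to 32, PPARA on 17 to 106 and PPARG on 59 to 131. With 2 pools per group, intervals were wide even for the deepest regulator, ESRRA, from -0.55 to 1.31 in TH vs TL.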

Other observations

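Among the genes listed as adipocyte markers, 2 that heart muscle also expresses were lower in both Tibetan than in both Yorkshire libraries at each site; they were picked out after their values were seen. AQP7, a channel for glycerol, was at 15.4 and 11.3 FPKM in TH1 and TH2, 7.35 and 11.9 in TL1 and TL2, 50.4 and 32.0 in YH1 and YH2, and 31.2 and 22.5 in YL1 and YL2. All 4 Tibetan libraries lay below all 4 Yorkshire libraries, with a log2 fold change of -1.53 in TH vs YH (limma, SE 0.34, adjusted p = 0.134) and -1.41 in TL vs YL (SE 0.34, adjusted p = 0.296), neither of which passed. LIPE, the hormone-sensitive lipase that frees fatty acids from stored fat, was at 8.73 and 4.72 FPKM in TH1 and TH2, 3.36 and 2.12 in TL1 and TL2, 14.4 and 10.6 in YH1 and YH2, and 9.85 and 6.29 in YL1 and YL2. Across sites the breeds overlapped, with TH1 above YL2. The log2 fold change of LIPE was -0.84 in TH vs YH (adjusted p = 0.310), or -0.46 without TH2, and -1.27 in TL vs YL (adjusted p = 0.343).

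A pair of PPAR-regulated genes, CPT1A of the liver-type carnitine system and EHHADH of peroxisomes, were high in 1 library only, and were picked out after their values were seen. CPT1A was at 78.6 FPKM in YL2 and at 4.79 to 17.8 FPKM in the other 7 libraries, and EHHADH at 46.8 and 0.594 to 3.57 FPKM. YL2 is the library with the kidney transcripts, and their part in these values was not tested.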
